A study of Mus musculus with 16 samples.

Results

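The 10 genes described here carry the cAMP signal from a Gs-coupled receptor to protein kinase A: Gnas, which encodes the stimulatory G protein alpha subunit, 4 adenylyl cyclases (Adcy3, Adcy6, Adcy7, Adcy9), 2 catalytic subunits of protein kinase A (Prkaca, Prkacb) and 3 regulatory subunits (Prkar1a, Prkar2a, Prkar2b). They were chosen by gene symbol from a table of 14829 genes, and all 10 were found and passed the filter on low counts. RNA had been sequenced from sorted hematopoietic stem cells, which form all blood cells, of 4 young and 4 old mice. Marrow cells of each mouse had been divided and kept for 1 h at 37 °C with vehicle or with dmPGE2, a long-acting analogue of prostaglandin E2, and the stem cells were then sorted. This gave 4 groups of 4 libraries: young vehicle, young dmPGE2, old vehicle and old dmPGE2. The labels give no exact age, strain, sort gate or dmPGE2 dose. The sample descriptions carry 2 dates and do not say which step was done then, and each date covers 2 mice of either age. Mice 477, 478 (young), 479 and 480 (old) belong to date 1, and mice 483, 484 (young), 485 and 486 (old) to date 2.

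Prostaglandin E2 binds the EP receptors, of which EP2 and EP4 couple to Gs. The activated Gs alpha subunit stimulates adenylyl cyclases, membrane enzymes that make cAMP from ATP. In resting protein kinase A, regulatory subunits hold the catalytic subunits inactive. Binding of cAMP to the regulatory subunits frees the catalytic subunits, which phosphorylate CREB and other proteins. In hematopoietic stem cells the EP receptors and cAMP are known for effects on homing, survival and self-renewal.

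Library totals ran from 12960704 to 19226963 counts. All 14 stem cell markers were above 1 CPM (counts scaled to a common library size) in every library, with summed levels of 3755 to 6880 CPM. Markers of mature cells differed strongly between the dates. The summed level of 10 neutrophil markers was 3.90 to 14.8 CPM on date 1 and 804 to 1780 CPM on date 2, and Cd177 was at 0 in the old libraries of date 1. On date 2 those sums were 1171 to 1780 CPM in young and 804 to 960 CPM in old libraries. The summed level of 8 megakaryocyte and platelet markers was 479 to 680 CPM in young and 1289 to 1747 CPM in old libraries over both dates, with no marker at 0. In such bulk samples, fewer cells of a type and less RNA per cell cannot be told apart. Such sums also do not show whether the stem cells or other cells held the RNA.

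Promoter sequence is shown first for Prkar1a, which rose after dmPGE2, and for Adcy3 and Adcy9. In dmPGE2 libraries these cyclases differed in opposite directions between old and young mice. The windows are from RefSeq on GRCm38.p6, hold 300 bases each and cover the start of the first exon in the table. They were searched on both strands for the cAMP response element (CRE) TGACGTCA, bound by CREB, and for its shorter core TGACG, which overlaps every full element. Capitals mark these matches. Prkar1a, chr11:109650699-109650998, plus strand; Adcy3, chr12:4133147-4133446, plus strand; Adcy9, chr16:4420449-4420748, minus strand.
Prkar1a: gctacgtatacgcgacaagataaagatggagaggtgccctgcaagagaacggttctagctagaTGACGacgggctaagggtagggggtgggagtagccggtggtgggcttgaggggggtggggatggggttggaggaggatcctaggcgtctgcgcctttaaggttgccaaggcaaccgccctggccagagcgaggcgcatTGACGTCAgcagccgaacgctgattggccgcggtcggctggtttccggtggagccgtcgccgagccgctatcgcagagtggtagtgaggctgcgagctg
Adcy3: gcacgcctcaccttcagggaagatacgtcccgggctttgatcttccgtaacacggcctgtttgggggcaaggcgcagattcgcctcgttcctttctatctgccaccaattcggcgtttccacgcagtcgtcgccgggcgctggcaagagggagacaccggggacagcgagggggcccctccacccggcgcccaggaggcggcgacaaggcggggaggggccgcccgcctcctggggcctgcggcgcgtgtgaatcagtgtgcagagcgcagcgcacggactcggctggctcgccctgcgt
Adcy9: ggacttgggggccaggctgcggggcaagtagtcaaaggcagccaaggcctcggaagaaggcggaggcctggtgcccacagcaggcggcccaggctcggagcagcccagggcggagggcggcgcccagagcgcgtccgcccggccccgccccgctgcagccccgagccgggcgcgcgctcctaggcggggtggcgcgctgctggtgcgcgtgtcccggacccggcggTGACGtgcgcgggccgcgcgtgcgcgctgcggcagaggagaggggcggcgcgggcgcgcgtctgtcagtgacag
The full element was found in 588 of 32851 RefSeq promoter windows of this length (1.79%), and the core in 20.81%. Of the 24 windows of the 9 genes with an entry, the full element lay in 2, which overlap each other and belong to Prkar1a. The Adcy9 window held the core once and the Adcy3 window did not hold it. The core also lay in at least 1 window of Gnas, Adcy7, Prkaca, Prkacb, Prkar1a and Prkar2a, and in none of Prkar2b. A match describes letters and not binding, and Adcy6 had no entry.

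Levels per length, as RPKM (CPM divided by exon length in kilobases), ordered the genes over the 16 libraries. Prkar1a, the type I alpha regulatory subunit, was highest with 197 ± 15.8 RPKM (SD, n = 16 libraries), above 97.8% of the genes in the table. Gnas followed with 104 ± 9.12 RPKM. Before division by length Gnas was the higher, with a mean of 852 CPM against 656 CPM for Prkar1a. The exon lengths used were 8171 bases for Gnas and 3323 for Prkar1a, so the order of these 2 genes depends on them. The remaining protein kinase A genes were Prkacb (63.0 ± 6.11), Prkar2b (62.7 ± 6.13), Prkaca (39.96 ± 3.25) and Prkar2a (14.5 ± 1.88 RPKM). Adcy7, a cyclase that is abundant in blood cells, had 25.04 ± 3.45 RPKM, while Adcy9 (4.85 ± 1.52), Adcy6 (4.17 ± 1.31) and Adcy3 (3.505 ± 1.56 RPKM) were the lowest. In this order the libraries of Prkacb and Prkar2b overlapped, as did those of Adcy9, Adcy6 and Adcy3, and no other neighbours did. The highest library was 1.32 to 1.56 times the lowest for the 7 genes from Prkar1a to Prkar2a, against 2.78 times for Adcy6, 3.20 times for Adcy9 and 4.47 times for Adcy3 on the CPM scale.

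**Figure D1:**
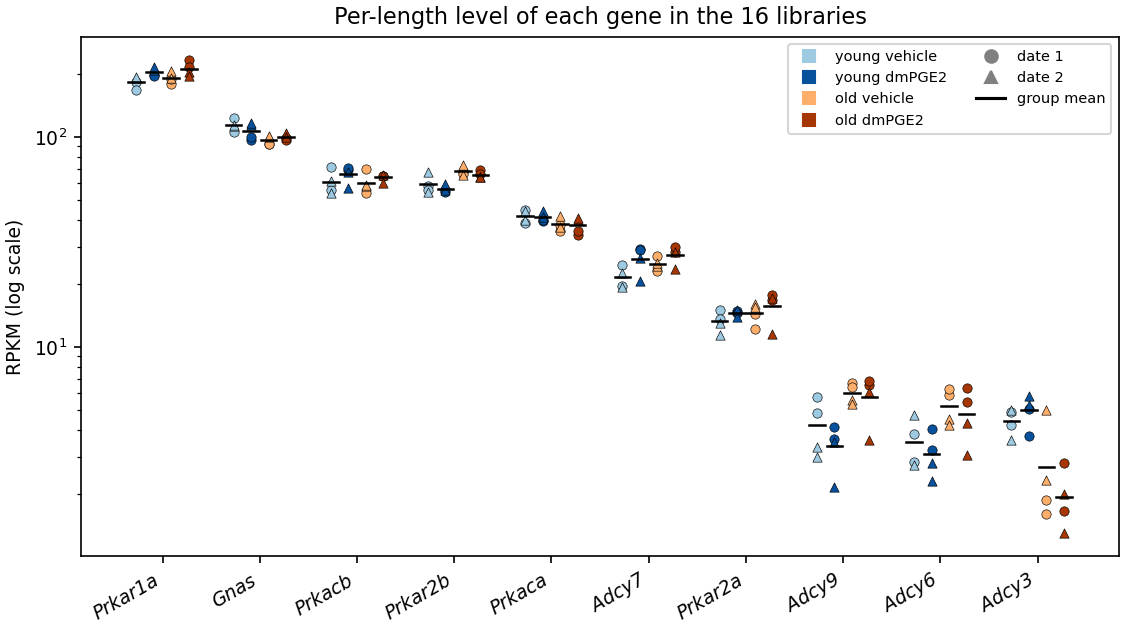
RPKM on a log axis for each gene in the 16 libraries, coloured by group, with circles for date 1, triangles for date 2 and a line at each group mean. Prkar1a averaged 197 RPKM and Adcy3 3.505, and the 3 low cyclases spread more than the other 7 genes.

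In the table the rows lie on mm10 as follows. Gnas spans chromosome 2 from 174284320 to 174346742 on the plus strand, a range that takes in the upstream first exons of this imprinted locus. Adcy3 spans chromosome 12 from 4133397 to 4213524 (plus), Adcy6 chromosome 15 from 98589986 to 98607633 (minus), Adcy7 chromosome 8 from 88272403 to 88329962 (plus) and Adcy9 chromosome 16 from 4284886 to 4420498 (minus). Prkaca spans chromosome 8 from 83972978 to 83996442 (plus) and Prkacb chromosome 3 from 146729579 to 146812946 (minus). Prkar1a spans chromosome 11 from 109650949 to 109669648 (plus), Prkar2a chromosome 9 from 108692143 to 108749511 (plus) and Prkar2b chromosome 12 from 31958479 to 32061279 (minus). Each value is a sum over all exons of the gene, UTR exons included where the annotation has them.

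Within each family 1 isoform held most of the RNA per length. Adcy7 made up 66.6% ± 4.22 (SD, n = 16 libraries) of the RPKM of the 4 cyclases. Prkacb, the beta catalytic subunit, made up 61.1% ± 3.07 of the catalytic RPKM. Prkar1a made up 71.9% ± 1.88 of the regulatory RPKM, Prkar2b 22.8% ± 1.88 and Prkar2a 5.28% ± 0.582. The Adcy3 share of cyclase RPKM in young libraries was 13.3% ± 2.46 with vehicle and 13.4% ± 3.34 with dmPGE2 (SD, n = 4 each). In old libraries it was 6.89% ± 3.87 with vehicle and 4.79% ± 1.30 with dmPGE2. The summed regulatory RPKM was 2.498 ± 0.232 times the summed catalytic RPKM in young vehicle and 2.78 ± 0.195 times in old vehicle libraries. With dmPGE2 this ratio was 2.55 ± 0.167 in young and 2.88 ± 0.264 in old libraries. No test was made on shares or ratios.

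**Figure D2:**
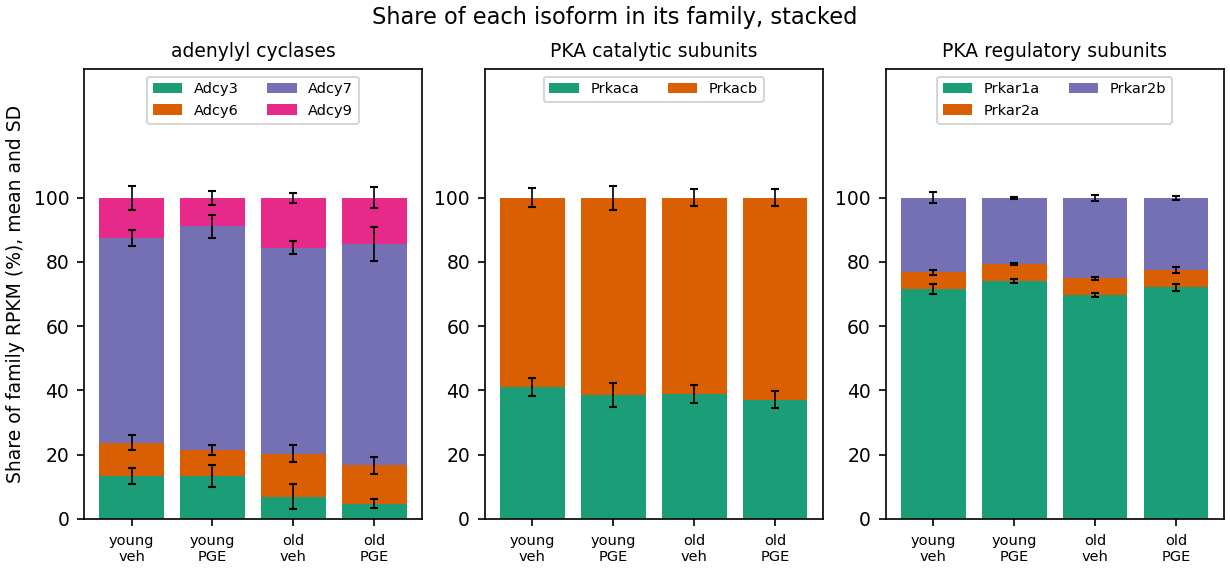
Share of each isoform in the summed RPKM of its family (percent, stacked means of 4 libraries a group, with the SD of each isoform at the top of its segment; veh, vehicle; PGE, dmPGE2). Adcy7, Prkacb and Prkar1a were the main isoforms in all 4 groups, and the Adcy3 share averaged 13.3% in young vehicle and 6.89% in old vehicle libraries.

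The first question was whether 1 h of dmPGE2 changes the RNA of the machinery that carries its own signal. Of the 10 genes, 1 rose and none fell over all 8 mice: Prkar1a, whose product restrains the catalytic subunits. Its rise was small, 1.11-fold. Over all genes tested, 2.49% were called in this comparison (347 of 13942, edgeR, adjusted p under 0.05). The median log2 change was -0.02 over the 10 genes and -0.0037 over all genes, and 2 of the 10 had an unadjusted p under 0.05 (Prkar1a and Adcy7), as did 13.9% of all genes.

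Prkar1a in young mice 477, 478, 483 and 484 was at 607, 555, 635 and 643 CPM with vehicle and at 654, 650.1, 692 and 714 CPM with dmPGE2. In old mice 479, 480, 485 and 486 it was at 591, 628, 684 and 631 CPM with vehicle and at 769, 716, 678 and 648 CPM with dmPGE2. It was higher with dmPGE2 in 7 of 8 mice, mouse 485 being the exception, and young vehicle and young dmPGE2 libraries did not overlap. The log2 change over all mice was 0.15 ± 0.03 (SE, 8 pairs, edgeR adjusted p = 0.0434). On date 1, where all 4 dmPGE2 libraries lay above all 4 vehicle libraries, it was 0.23 ± 0.05 (1.17-fold, adjusted p = 0.0280), and 2.93% of all genes were called. On date 2 it was 0.08 ± 0.05 (adjusted p = 0.723). Vehicle values of Prkar1a did not overlap between the dates, with means of 595 (date 1) and 648 CPM (date 2). That difference was not called (log2 0.13 ± 0.06, edgeR adjusted p = 0.192). For dmPGE2 libraries the corresponding means were 697 and 683 CPM. The part of the vehicle level in the date 2 value was not tested. The all-mice call is near the threshold: leaving out any mouse ended it, with adjusted p from 0.0528 to 0.287 and log2 changes from 0.12 to 0.18. The date 1 call was lost without mouse 478, 479 or 480, with adjusted p of 0.256, 0.398 and 0.0701.

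Adcy7 in young mice 477, 478, 483 and 484 was at 154, 123, 143 and 123 CPM with vehicle and at 184, 183, 131 and 168 CPM with dmPGE2. In old mice 479, 480, 485 and 486 it was at 172, 146, 153 and 159.5 CPM with vehicle and at 179, 189, 149 and 178 CPM with dmPGE2. The value with dmPGE2 was the higher in 6 of 8 mice, mice 483 and 485 being the exceptions. As for Prkar1a, all 4 dmPGE2 libraries of date 1 lay above all 4 vehicle libraries of date 1. The log2 change was 0.21 ± 0.07 over all mice (adjusted p = 0.183) and 0.32 ± 0.10 on date 1 (adjusted p = 0.156), neither past the threshold. It passed when mouse 483 was left out (all mice, 0.29, adjusted p = 0.0483) and when date 1 libraries were fitted alone (0.32, adjusted p = 0.0319).

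**Figure D3:**
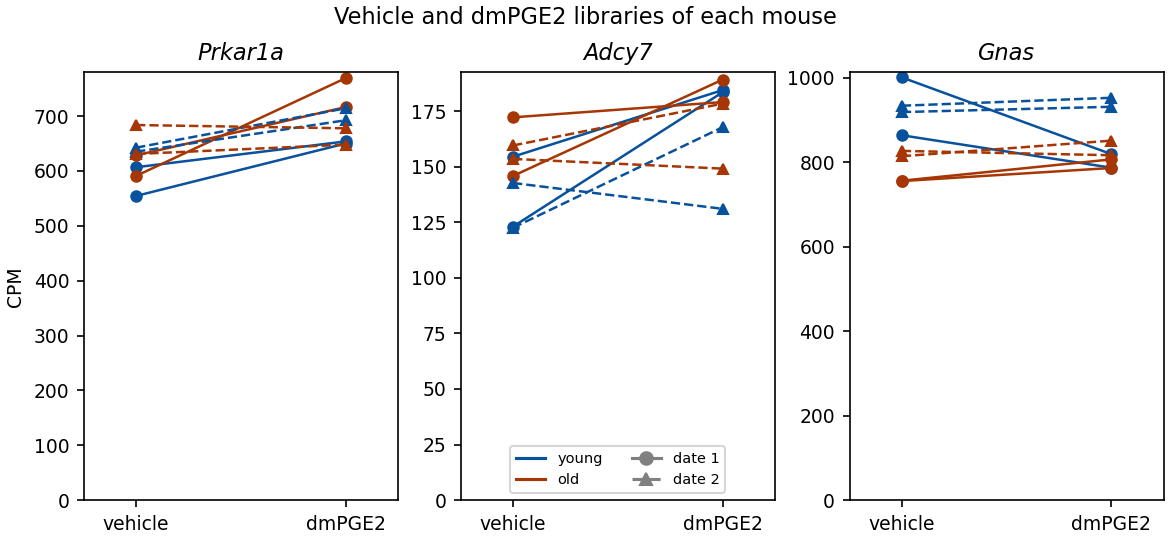
CPM of Prkar1a, Adcy7 and Gnas with vehicle and with dmPGE2, 1 line for each of the 8 mice, blue for young, brown for old, solid with circles for date 1 and dashed with triangles for date 2. Prkar1a was higher with dmPGE2 in 7 of 8 mice and Adcy7 in 6 of 8, while Gnas was higher in 5 of 8.

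The other 8 genes did not pass the threshold over all mice. Gnas had a log2 change of -0.02 ± 0.03, the smallest error of the 10. Prkaca (-0.02 ± 0.06) and Prkar2b (-0.06 ± 0.04) were also near 0, and Prkacb had 0.11 ± 0.06 and Prkar2a 0.12 ± 0.08. The less abundant cyclases had wider errors, with -0.11 ± 0.12 for Adcy3, -0.17 ± 0.12 for Adcy6 and -0.21 ± 0.10 for Adcy9. Their adjusted p-values ran from 0.388 for Adcy9 to 0.942 for Prkaca.

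On date 2 none of the 10 genes was called, and 0.387% of all genes were (edgeR; 1 of the 10, Adcy6, had an unadjusted p under 0.05, as did 8.63% of all genes, and DESeq2 and limma-voom called 0 of the 10). Adcy6 had -0.39 ± 0.17 there (adjusted p = 0.566) and 0.05 ± 0.17 on date 1. The difference between the dates was itself tested: none of the 10 was called, against 1.08% of all genes, and 0 of the 10 were called by DESeq2 or limma-voom or had an unadjusted p under 0.05, which 9.67% of all genes had. The value nearest the threshold was that of Prkar1a, -0.15 ± 0.07 for date 2 minus date 1 (adjusted p = 0.517).

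**Figure D4:**
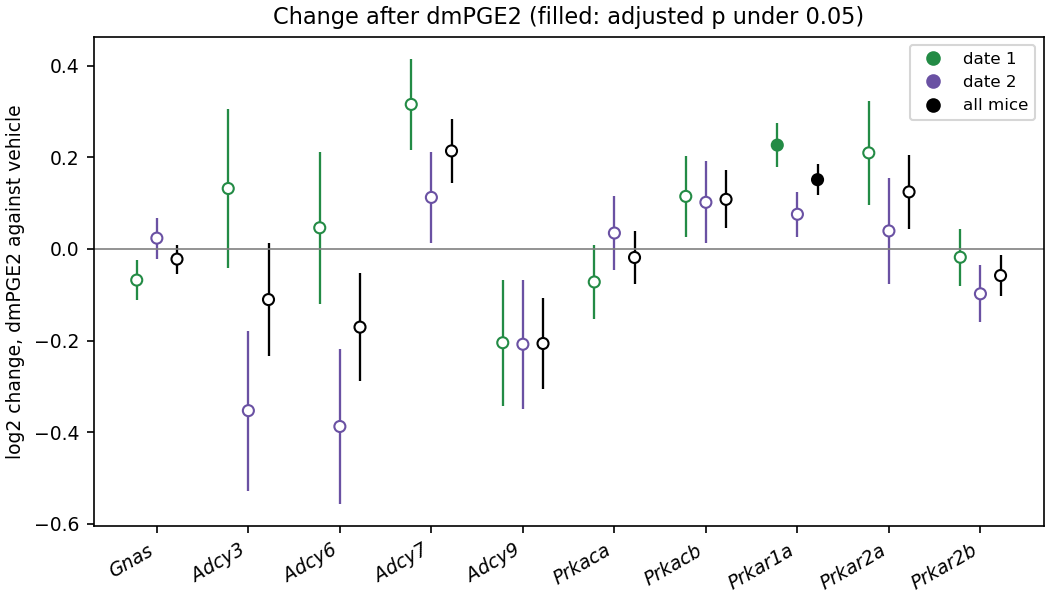
Log2 change of each gene with dmPGE2 against vehicle on date 1 (4 mice), date 2 (4 mice) and over all 8 mice, with standard errors, filled where the adjusted p was under 0.05. Prkar1a is filled on date 1 (0.23) and over all mice (0.15), and no gene is filled on date 2.

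Taken by age, the response of the 10 genes had no call in young mice (1.84% of all genes called) or in old mice (1.51%), nor in the difference between the ages (0.00717%). At an unadjusted p under 0.05 there were 3 of the 10 in young mice (14.6% of all genes), 1 in old mice (9.18%) and 2 in the difference (8.23%). DESeq2 and limma-voom called 0 of the 10 in each. Prkar1a had a log2 change of 0.15 ± 0.05 in young and of 0.15 ± 0.05 in old mice, and the difference was -0.0048 ± 0.07 (adjusted p = 1). For Adcy3 the change was 0.16 ± 0.17 in young and -0.38 ± 0.18 in old mice, a difference of -0.55 ± 0.25 (adjusted p = 0.598). Gnas had -0.09 ± 0.04 in young and 0.05 ± 0.04 in old mice, a difference of 0.14 ± 0.06 (adjusted p = 0.582).

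Other steps of the pathway were read from lists beside the 10 genes. Of all genes tested, 2.49% were called over all mice, 2.93% on date 1 and 0.387% on date 2. For the difference between the dates the share was 1.08%. Of 17 listed CREB targets, 15 rose over all mice, with a median log2 change of 1.33, and the dates differed widely. On date 1, 15 rose with a median of 2.08, and on date 2, 9 rose with a median of 0.52. In the test of the difference between the dates, 14 of the 17 had a smaller change on date 2 and none a larger one. The vehicle libraries also differed: 13 of 16 targets tested there were higher on date 2 than on date 1 and none lower. Their median log2 difference was 1.42, against -0.0097 over all genes, of which 11% were called. The part of this vehicle difference in the smaller changes on date 2 was not tested. The list was drawn up with earlier results of these data known, so its direction is not independent evidence. Nr4a1, an orphan nuclear receptor gene, rose 68.7-fold on date 1 and 1.78-fold on date 2. Sik1, a kinase that feeds back on CREB coactivators, rose 11.7-fold and 1.44-fold. Of 14 cAMP phosphodiesterases tested, 1 rose: Pde4b, which breaks down cAMP, by 1.65-fold (log2 0.72 ± 0.05, adjusted p = 1.33e-06), with 1.94-fold on date 1 and 1.41-fold on date 2. Of 9 genes listed as A-kinase anchoring proteins and tested, 2 rose, Akap8l (1.19-fold, adjusted p = 0.0434) and Akap8 (1.18-fold, adjusted p = 0.0472). Akap8l had 1.35-fold on date 1 (adjusted p = 0.0111) and 1.05-fold on date 2 (adjusted p = 0.873), and Akap8 had 1.22-fold (adjusted p = 0.0807) and 1.13-fold (adjusted p = 0.560). Of 10 receptors tested, 1 rose: Gpr65, an acid-sensing receptor that couples to Gs, by 1.64-fold over all mice (adjusted p = 0.00301). On date 1 it rose 2.45-fold, and on date 2 its log2 change was 0.14 ± 0.15 (adjusted p = 0.863). Of 8 CREB family genes and coactivators, 1 rose: Crem, whose short form represses CREB targets, by 2.51-fold, with 3.37-fold on date 1 and 1.87-fold on date 2 (adjusted p = 0.0893). Among the other lists edgeR called none over all mice. At an unadjusted p under 0.05 were 1 of 12 other G alpha subunits and chaperones and 2 of 12 G beta and gamma subunits. So were 1 of 5 other protein kinase A subunits and inhibitors and 1 of 5 Epac and other cAMP effectors, against 13.9% of all genes.

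The second question was how old and young stem cells differ. In the vehicle libraries Gnas was lower in old mice and Adcy9, a widely expressed cyclase that responds little to forskolin, was higher. These were 2 of the 10 genes, against 17.3% of all genes (2318 of 13369). The median log2 difference, old minus young, was 0.09 over the 10 genes and -0.0012 over all genes. In the dmPGE2 libraries Adcy3, which is best known from olfactory neurons, was lower in old mice, and Adcy6, a cyclase inhibited by calcium, Adcy9 and Prkar2b, a type II regulatory subunit, were higher. These were 4 of the 10, against 14.3% of all genes (1894 of 13279). Both sets of libraries come from the same 8 mice, so the comparisons are not independent.

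Gnas in vehicle libraries was at 864, 1001, 919 and 934 CPM in young mice 477, 478, 483 and 484, and at 757, 756, 815 and 827 CPM in old mice 479, 480, 485 and 486. All 4 old values lay below all 4 young values. The log2 difference was -0.24 ± 0.06 (1.19-fold lower in old, edgeR adjusted p = 0.0163), and it was -0.31 within date 1 (adjusted p = 0.0601) and -0.18 within date 2 (adjusted p = 0.226). Without mouse 479 or 480 the adjusted p was 0.0527 or 0.0621. In dmPGE2 libraries Gnas averaged 873 ± 81.7 CPM in young and 816 ± 27.0 in old mice (SD, n = 4), with overlap and no call (log2 -0.09 ± 0.05, adjusted p = 0.284).

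Adcy9 in vehicle libraries was at 38.0, 45.1, 26.1 and 23.5 CPM in young mice 477, 478, 483 and 484, and at 52.6, 50.6, 43.8 and 42.02 CPM in old mice 479, 480, 485 and 486. Old values were above young values within each date, while over both dates young mouse 478 lay above old mice 485 and 486. The log2 difference was 0.54 ± 0.13 (1.46-fold higher in old, adjusted p = 0.0166), with 0.31 within date 1 (adjusted p = 0.303) and 0.79 within date 2 (adjusted p = 0.0190). Without mouse 485 the adjusted p was 0.0544. In dmPGE2 libraries Adcy9 was at 28.6, 32.6, 27.5 and 16.8 CPM in the young and at 51.7, 53.7, 47.7 and 28.3 CPM in the old mice, in the same order. There the difference was 0.78 ± 0.19 (1.72-fold, adjusted p = 0.0195), 0.77 within date 1 and 0.79 within date 2. The groups overlapped through old mouse 486, and the call was lost without mouse 477, 478, 480 or 484 (adjusted p of 0.0652, 0.0518, 0.0600 and 0.0587).

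Adcy3 in dmPGE2 libraries was at 23.9, 17.8, 24.9 and 27.5 CPM in young mice 477, 478, 483 and 484, and at 13.2, 7.78, 6.16 and 9.36 CPM in old mice 479, 480, 485 and 486. The groups did not overlap. The log2 difference was -1.37 ± 0.25 (2.58-fold lower in old, adjusted p = 0.00452), with -1.002 within date 1 (adjusted p = 0.111) and -1.74 within date 2 (adjusted p = 0.0144), and the call held without each mouse in turn. In vehicle libraries Adcy3 was at 23.1, 20.03, 17.1 and 23.5 CPM in the young and at 8.78, 7.56, 10.9 and 23.6 CPM in the old mice. Old mouse 486 was as high as the young mice, and the other 3 old values lay below all young values. The difference was -0.82 ± 0.30 (adjusted p = 0.0868), not past the threshold, and -1.20 with adjusted p = 0.00509 when mouse 486 was left out. Within date 1 it was -1.40 (adjusted p = 0.0452) and within date 2 -0.24 (adjusted p = 0.736).

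Adcy3 lies over Cenpo, a centromere protein gene on the opposite strand, with which it shares 1045 of its 4730 exon bases (22.1%) in the table. The library kit does not mark strand, so reads from the shared bases cannot be assigned to either gene. Cenpo averaged 40.8 ± 3.76 CPM in young vehicle and 34.1 ± 3.22 in old vehicle libraries (SD, n = 4), and 44.9 ± 4.86 in young dmPGE2 and 29.1 ± 3.05 in old dmPGE2 libraries. Its difference between old and young was -0.27 ± 0.12 with vehicle (adjusted p = 0.172) and -0.62 ± 0.11 with dmPGE2 (1.54-fold lower, adjusted p = 0.00466). The part of Cenpo reads in the Adcy3 result was not tested. Gnas shares 111 of its 8171 exon bases (1.36%) with the antisense gene Nespas, which had at most 14 counts in any library. The other 8 genes share no exon base with another row of the table. In the GENCODE annotation, however, Adcy6 shares 605 exon bases with the antisense gene Gm29331. There Gnas shares 1469 exon bases with Gm20721 and 988 with Nespas, both on the opposite strand. The part of such reads in the Adcy6 and Gnas values was not tested.

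Adcy6 in dmPGE2 libraries was at 19.5, 24.5, 16.9 and 13.8 CPM in young mice 477, 478, 483 and 484, and at 38.3, 32.8, 26.1 and 18.4 CPM in old mice 479, 480, 485 and 486. Old values were above young values within each date, and the groups overlapped across dates. The difference was 0.61 ± 0.16 (1.53-fold higher in old, adjusted p = 0.0287), with 0.68 within date 1 (adjusted p = 0.146) and 0.55 within date 2 (adjusted p = 0.194). It did not pass without mouse 477, 478, 479, 480, 484 or 485, with adjusted p from 0.0627 to 0.103. In vehicle libraries it averaged 21.3 ± 5.66 CPM in young and 31.5 ± 6.14 in old mice (SD, n = 4; log2 0.54 ± 0.21, adjusted p = 0.101), and passed without young mouse 483 (0.79, adjusted p = 0.0123).

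Prkar2b in dmPGE2 libraries was at 183, 187, 188 and 201 CPM in young mice 477, 478, 483 and 484, and at 233, 224, 216 and 216 CPM in old mice 479, 480, 485 and 486. The groups did not overlap. The difference was 0.23 ± 0.06 (1.17-fold higher in old, adjusted p = 0.0287), with 0.29 within date 1 (adjusted p = 0.0744) and 0.16 within date 2 (adjusted p = 0.247). Leaving out mouse 477, 478, 479, 480 or 483 gave adjusted p from 0.0580 to 0.106. In vehicle libraries it averaged 199.5 ± 20.7 CPM in young and 230.1 ± 12.1 in old mice (SD, n = 4; log2 0.20 ± 0.08, adjusted p = 0.111), and it passed without young mouse 484 (0.28, adjusted p = 0.0331).

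**Figure D5:**
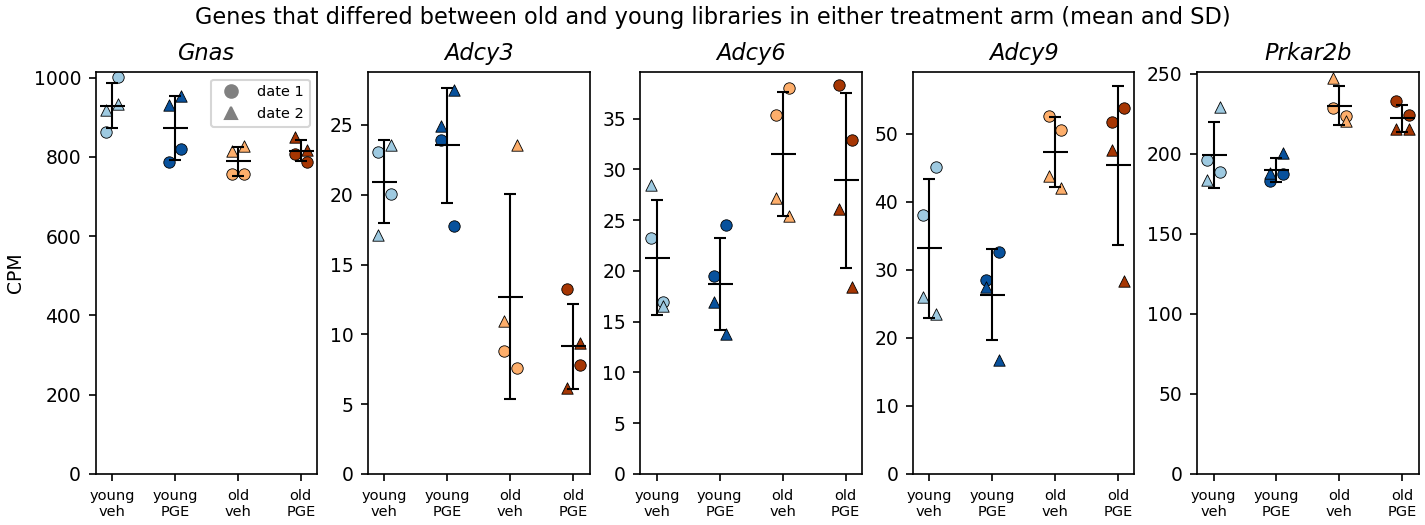
CPM of Gnas, Adcy3, Adcy6, Adcy9 and Prkar2b by age and treatment (veh, vehicle; PGE, dmPGE2), with circles for date 1, triangles for date 2 and the mean with SD of 4 libraries. With dmPGE2, Adcy3 was at 6.16 to 13.2 CPM in old and 17.8 to 27.5 CPM in young libraries, while 1 old vehicle library reached 23.6 CPM.

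The other 5 genes passed in neither age comparison. Adcy7 had a log2 difference, old minus young, of 0.21 ± 0.10 with vehicle (adjusted p = 0.159) and of 0.07 ± 0.09 with dmPGE2. Prkaca had -0.15 ± 0.09 and -0.14 ± 0.07, and Prkacb -0.02 ± 0.10 and -0.05 ± 0.07. Among the regulatory subunits, Prkar1a had 0.05 ± 0.06 with vehicle and 0.05 ± 0.06 with dmPGE2, and Prkar2a had 0.12 ± 0.12 and 0.11 ± 0.12. Both catalytic subunits and the main regulatory subunit thus had differences within 2 standard errors of 0.

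Summed marker levels moved with age. The stem cell markers were at 5265 to 5644 CPM in young and 5979 to 6880 CPM in old libraries on date 1, and at 3755 to 4040 CPM and 5217 to 5526 CPM on date 2. The platelet markers were higher in old libraries on both dates, in ranges given above. T and NK cell markers (9 of 10 measured) were lower in old libraries on both dates, at 24.9 to 48.7 CPM against 55.4 to 85.7 CPM on date 1 and at 151 to 222 CPM against 321 to 373 CPM on date 2. On date 1 Klrd1 was at 0 in every library and Cd3d in every old library. Myeloid progenitor markers were higher in old libraries on date 1, at 1178 to 1339 CPM against 942 to 1100.4 CPM, and lower on date 2, at 2276 to 2569 CPM against 3034 to 4142 CPM. Monocyte and macrophage markers overlapped on date 1, at 490.4 to 589 CPM in old and 565 to 704 CPM in young libraries, and were lower in old libraries on date 2, at 983 to 1248 CPM against 1314 to 1901 CPM. On date 2 the neutrophil and erythroid markers were lower in old libraries too. The summed erythroid level on date 2 was 3118 to 3300 CPM in young and 2042 to 2169 CPM in old libraries (8 of 12 markers measured). The part of these marker differences in the age differences of the 10 genes was not tested.

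Other lists of the pathway are given as counts against the 17.3% of all genes called with vehicle and the 14.3% called with dmPGE2, and several lie near those shares. In vehicle libraries, of 9 receptors tested, 3 were higher in old mice and 1 lower: Ptger4, the Gs-coupled EP4 receptor, was 2.36-fold higher (log2 1.24 ± 0.14, adjusted p = 3.01e-04), Ptger3, the EP3 receptor, which couples to Gi, 1.65-fold and the adenosine receptor Adora2a 1.38-fold, while Gpr65 was 1.59-fold lower. In dmPGE2 libraries 3 of 8 were higher and 2 lower, and these 4 were called again, with 1.99-fold for Ptger4, 1.65-fold for Ptger3, 1.40-fold for Adora2a and 1.55-fold lower for Gpr65. With vehicle, of 5 other protein kinase A subunits and inhibitors, 1 was higher, the type I beta regulatory subunit Prkar1b, 6.10-fold from a low mean level of 3.95 CPM, while with dmPGE2 it was 2.59-fold and not called (adjusted p = 0.141). Of 13 phosphodiesterases, 3 were higher with vehicle (Pde2a, Pde4b and Pde10a) and 1 with dmPGE2, Pde2a, which cGMP stimulates (1.81-fold and 1.65-fold). Of 8 anchoring proteins 3 were higher with vehicle, Akap9 (1.44-fold), Akap11 (1.69-fold) and Akap13 (1.30-fold). None of these 3 was called with dmPGE2 (1.07-fold, 1.26-fold and 1.03-fold), where Akap7 was (1.41-fold, 1 of 9 tested). Of 5 Epac and other effectors 1 was higher in both, Rapgef3 (2.12-fold and 1.49-fold), which encodes the cAMP-activated exchange factor Epac1. Of 11 other G alpha subunits and chaperones, Gna15 was 1.53-fold lower and Gna13 1.246-fold higher with vehicle, and with dmPGE2 Gna15 was 1.32-fold lower and Gna13 was not called (adjusted p = 0.997). Of 12 G beta and gamma subunits 2 were higher and 3 lower with vehicle and 2 higher and 1 lower with dmPGE2. With vehicle Gng11 was 1.47-fold higher, Gng10 1.39-fold lower and Gng2 1.44-fold lower. Of the 6 other adenylyl cyclases listed, 3 were in the table and 1, Adcy4, was tested, without a call (mean 2.49 CPM). Of 16 CREB targets tested, 8 were higher and 1 lower in old vehicle libraries, and of 17 with dmPGE2, 6 were higher and none lower. With vehicle none of the 8 CREB family genes was called (2 at an unadjusted p under 0.05, which 31.4% of all genes had).

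The date itself was compared in the vehicle libraries with age in the fit. Of the 10 genes, 1 differed, against 11% of all genes (1472 of 13369). On date 1 the mean of Adcy9 was 46.6 ± 6.53 CPM and on date 2 it was 33.8 ± 10.6 CPM (SD, 4 libraries each), a log2 difference of -0.50 ± 0.13 (1.41-fold lower on date 2, adjusted p = 0.0343). This call was lost without any mouse except 485, with adjusted p of up to 0.0869. The neutrophil sum, at 3.90 to 14.8 CPM on date 1 and 804 to 1780 CPM on date 2, moved the other way. So did the myeloid progenitor, monocyte and macrophage, and T and NK cell sums. The stem cell sum moved as Adcy9 did. In young vehicle libraries it was at 5265 to 5562 CPM on date 1 and 3755 to 3958 CPM on date 2. In old vehicle libraries it was at 5979 to 6851 CPM and 5217 to 5526 CPM. The part of these sums in the Adcy9 values was not tested.

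After the mean of each date was removed, log2 CPM of the 10 genes was compared over the 16 libraries, which share mice, groups and depth, so correlations are given as descriptions. Adcy3 ran against Adcy9 (Pearson r = -0.69) and against Adcy6 (-0.67), while Adcy6 and Adcy9 ran together (0.72), and Gnas ran against Adcy6 (-0.67). Among 8798 other genes, those most like Gnas were Nrp (r = 0.963) and Lsm2 (0.959). Those most like Adcy3 were Prim2 (0.933) and Vrk1 (0.931), those most like Adcy9 were Wdr19 (0.936) and Nrgn (0.922), and those most like Adcy6 were Inppl1 (0.885) and Ptger4 (0.857). Adcy7 was most like Nrip1 (0.881) and Hic2 (0.869). For the protein kinase A genes these were Ppp1r3d (0.933) and Rabgef1 (0.908) for Prkar1a, Epdr1 (0.926) and Avpi1 (0.925) for Prkar2b, Slc23a2 (0.818) and Supt20 (0.804) for Prkar2a, Xpo6 (0.877) and Copb2 (0.813) for Prkacb, and Ints5 (0.859) and Sox12 (0.826) for Prkaca.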

How the data were processed

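RNA of 16 libraries of mouse hematopoietic stem cells was measured with Nextera XT libraries, per the labels' protocols. The authors deposited raw read counts per gene without normalization, with the length of each gene's exons in bases. Tools listed in the submitters' processing notes are STAR 2.5.2b, Subread 1.5.1 and featureCounts, with the build mm10, and no roles are given. For the counting, strand setting and annotation were not given in the sources used here. The table held 14829 genes and 2504 empty lines, and every gene exceeded 0.5 CPM in at least 2 libraries.

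CPM used TMM library sizes, and RPKM divided them by the deposited length. Genes were tested with edgeR 4.0.16 (quasi-likelihood, robust dispersion, filterByExpr by group) in R 4.3.3, with Benjamini-Hochberg adjustment over all genes tested and calls at an adjusted p under 0.05. The dmPGE2 fit held all 16 libraries, a block for each mouse, and dmPGE2 terms by age and date (13942 genes, 4 residual degrees of freedom). Date terms were included because earlier results showed that the response differs between the dates. The mouse number in the titles pairs the libraries. Deviations within a pair correlated at 0.375 to 0.626 after group means were removed and at 0.0141 to 0.181 after date means were removed as well. Age was tested in the 8 vehicle or 8 dmPGE2 libraries with a date term (5 residual degrees of freedom). Standard errors are the absolute log2 value over the square root of F. The fits were also run on simulated counts with the same dispersion for every gene and no mouse or date effects. Since the data differ from that setting, this does not test the calls given here. Alternatives were other size factors, no filter, DESeq2 1.42.0, limma 3.58.1 (voom), other terms and leaving out each mouse.

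The 10 genes and the pathway and marker lists were chosen with earlier results of these data known. From each pathway list, up to 3 called genes by smallest adjusted p were eligible to be named, and CREB targets were read as 1 list. The marker genes Hbb-bs, Hbb-bt, Hba-a1, Hba-a2, Ighm and Trbc2 were not used here. A count of 0, read as up to 3 counts, allows up to 0.154 to 0.232 CPM, for counting error only.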

Additional observations from a re-analysis of the deposited data

Results flagged for a closer look

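Prkar2a in the dmPGE2 library of old mouse 485 was at 46.4 CPM, far from the other 3 old dmPGE2 libraries at 67.7 to 71.3 CPM. The gap to the nearest library was 0.854 of the range of the group. The vehicle library of the same mouse was at 64.8 CPM. This was the single such value among 40 groups of 4 libraries (10 genes in 4 groups), and chance alone marks about 1 in 20.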

How the results depend on the processing

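No called gene changed sign under any alternative run. Of the 10 genes, 1 was called for dmPGE2 over all mice. That count was 0 with no filter on low counts, 0 with no date terms in the dmPGE2 effect (where 85 of all genes were called in place of 347) and 0 to 1 when each mouse was left out. Without the replicate block it was 1, as with the block, and the block changed no other call among the 10 genes. On date 1 the count was 1, it was 2 with date 1 libraries alone (Adcy7 and Prkar1a), and 0 to 1 without each mouse. For old against young in vehicle libraries the count of 2 became 0 with no term for date, 1 within date 1 (Adcy3), 1 within date 2 (Adcy9) and 1 to 3 without each mouse. DESeq2 added Adcy3 there and limma-voom added Adcy6. In dmPGE2 libraries the count of 4 became 1 (Adcy3) with no term for date, 0 within date 1, 1 within date 2 (Adcy3) and 1 to 4 without each mouse. For date 2 against date 1 the count of 1 became 0 to 1 without each mouse. The within-date values rest on 2 mice of each age, and the cause of the changed calls was not tested. By counts in place of lengths, Prkacb held 76.1% of the catalytic counts. A design-matrix filter, added after the data were seen, changed no count.

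Over all genes tested, counts of calls moved by over 1.5 times as follows. With no date terms, the 257 calls in young mice and the 210 in old mice became 0 each, and with no term for date the 2318 age calls with vehicle became 971 and the 1894 with dmPGE2 became 804. Within date 1 and date 2 these were 865 and 1057 with vehicle and 774 and 1097 with dmPGE2. Date 1 libraries alone gave 725 calls against 408. On date 2 the 54 calls became 133 with DESeq2 and 10 without the replicate block. DESeq2 gave 246 against 151 for the difference between dates, 492 against 257 in young mice and 63 against 1 for the difference between ages, where limma-voom gave 2 and the fit without the block 0. Without each mouse in turn the counts were 231 to 343 over all mice, 236 to 446 on date 1, 100 to 160 for the difference between dates, 130 to 259 in young mice, 120 to 221 in old mice, 0 to 2 for the difference between ages, 1448 to 2129 for age with vehicle, 1104 to 2167 for age with dmPGE2 and 902 to 1346 for date.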
